A study of Homo sapiens with 15 samples.

Results

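The comparison described here asked what the active FOXO1 mutant did to RNA levels in granulosa cells that already carried transfected SMAD3 and normal FOXL2. Its members are the 6 libraries of 15 in which SMAD3 was expressed together with wild-type FOXL2, chosen by their labels: 3 without FOXO1 (FOXL2WT) and 3 with FOXO1-3A (FOXL2WT + FOXO1). The FOXO1-3A protein, written FOXO1 below, carries alanine in place of its AKT phosphorylation sites and stays active in the nucleus. All libraries came from HGrC1, an immortalized line derived from human granulosa cells and normal at both FOXL2 alleles, at passage 14. Plasmids were delivered with a lipid reagent for 4 h, cells were then kept without serum for 24 h, and RNA was extracted. The cells therefore expressed the genes transiently, FOXL2 from a pCS2+ plasmid and FOXO1 from a pCDNA3 plasmid, and cells that took up no plasmid were measured together with those that did. The other 9 libraries held empty vectors (Vectors), SMAD3 with the tumor-associated mutant FOXL2C134W, or SMAD3, FOXL2C134W and FOXO1. They are used below only to show where the effect of FOXO1 beside the normal protein differed from its effect beside the mutant, and where the 2 groups of interest stood relative to empty vectors.

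FOXO1 is a forkhead transcription factor of the insulin and growth factor pathway. When AKT is active it is phosphorylated, bound by 14-3-3 proteins and kept in the cytoplasm; when AKT is inactive it enters the nucleus, binds forkhead sites and raises genes of cell cycle arrest, cell death, stress defence and insulin feedback. FOXL2 is also a forkhead factor and maintains granulosa cell identity, and SMAD3 carries the TGF-beta and activin signal to the nucleus. Forkhead and SMAD proteins can bind the same regulatory regions, so the 3 transfected proteins may meet on shared targets.

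The 6 libraries held between 14962245 and 23390238 estimated counts, and the 15 together between 14962245 and 25339094. Levels are given as CPM, counts scaled by library size, and differences as log2 fold changes of FOXL2WT + FOXO1 against FOXL2WT. Replicate A of FOXL2WT + FOXO1 stood apart from its fellows: a chi-square statistic over genes was 6.64 and 6.65 times its degrees of freedom against replicates B and C, compared with 2.82 between B and C and 2.31 to 3.17 within FOXL2WT. Of 20 granulosa genes, 8 had fewer than 10 counts in every one of the 6 libraries, among them FSHR, LHCGR and HSD3B2, which were at 0 throughout, and CYP19A1, the aromatase, with at most 1 count. GATA4, WT1, KRT8 and KRT18 were detected in all 6. The steroidogenic genes HSD17B1 (3.97 to 5.03 CPM), STAR (1.67 to 2.96 CPM) and CYP11A1 (0.974 to 1.71 CPM) were low but present in all 6. The gonadotropin receptors and aromatase, which define hormone-responsive granulosa cells, were thus absent or nearly so. The 20 genes together summed to 4583 to 4738 CPM without FOXO1 and to 4542 to 4787 CPM with it. Most of this sum came from the keratins KRT8 (2619 to 2790 CPM over the 6 libraries) and KRT18 (1706.5 to 1843 CPM), so it says little about the other members.

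The FOXO1 plasmid was read clearly in the libraries labelled with it. FOXO1 was at 11.8, 11.9 and 13.0 CPM in FOXL2WT and at 104, 116 and 132 CPM in FOXL2WT + FOXO1, a 9.56-fold higher level (log2 fold change 3.26 ± 0.09 SE, edgeR adjusted p = 5.3e-14). Under DESeq2 with transcript length offsets the log2 fold change was 8.53. The groups did not overlap, and the level without the plasmid was close to the 12.2 to 13.8 CPM of Vectors. The transcript tables divided these reads unevenly. The full-length coding transcript FOXO1-201 was at 2.45 to 2.73 TPM without the plasmid and at 18.1 to 25.0 TPM with it, whereas FOXO1-202, a noncoding transcript of 178 bases, was listed at 0 without it and at 625 to 1123 TPM with it.

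SMAD3 RNA fell when FOXO1 was added. It was at 2889, 2821 and 2595 CPM in FOXL2WT and at 976, 957 and 975 CPM in FOXL2WT + FOXO1, 2.86-fold lower (log2 fold change -1.51 ± 0.05 SE, edgeR adjusted p = 1.5e-13). It remained above the 240.0 to 263 CPM of Vectors. FOXL2 RNA also fell, from 562, 566 and 554 CPM to 376, 374 and 401 CPM (log2 fold change -0.55 ± 0.09 SE, edgeR adjusted p = 0.031), against 8.28 to 9.54 CPM in Vectors. All 3 libraries with FOXO1 thus held less RNA of both partners than any library without it. For every gene below, the addition of FOXO1 and the lower SMAD3 and FOXL2 RNA cannot be told apart. RNA and protein may differ: from an immunoblot of cultures grown in parallel, the paper describes FOXL2 and FOXO1 protein as balanced. That description does not name SMAD3. The call of FOXL2 was lost when any 1 of the 6 libraries was left out, although its log2 fold change then stayed between -0.58 and -0.53.

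**Figure D1:**
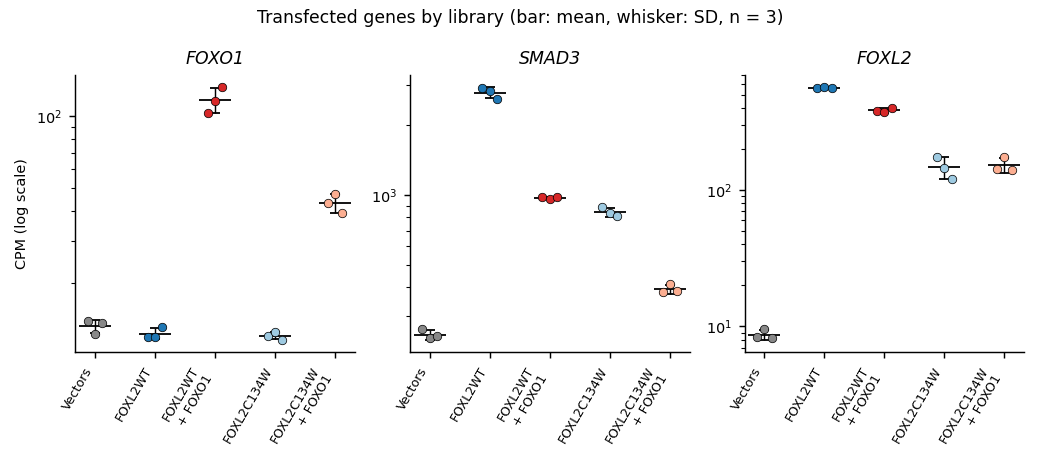
CPM of the 3 transfected genes (log scale) in each library of the 5 conditions, with the mean and SD of 3 libraries. With FOXL2WT, FOXO1 lay at 104 to 132 CPM in the FOXO1 libraries and at 11.8 to 13.0 CPM without it, while SMAD3 lay at 957 to 976 CPM against 2595 to 2889 CPM.

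Beyond the plasmids, few genes passed the test. Of 13868 genes tested, 7 were called at an edgeR adjusted p under 0.05 (0.0505%), and 3 of these were the transfected genes. The other 4 were ATF3, KLF10 and CMPK2, which fell, and ARHGAP11B, which rose. The median log2 fold change over all genes was 0.00, and the median of its absolute size was 0.07. Without adjustment, 623 genes (4.49%) were higher and 643 (4.64%) lower at an edgeR p under 0.05. The 3 libraries with FOXO1 lay wholly above the 3 without it for 956 genes (6.89%) and wholly below for 1048 (7.56%). The number of calls depended on the analysis. DESeq2 called 62 genes, 38 of them lower, and 5 of the 7 were among them, ATF3 and ARHGAP11B being lost. Leaving out 1 library at a time gave 2 to 7 calls, and without replicate B of FOXL2WT + FOXO1 only FOXO1 and SMAD3 passed.

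**Figure D2:**
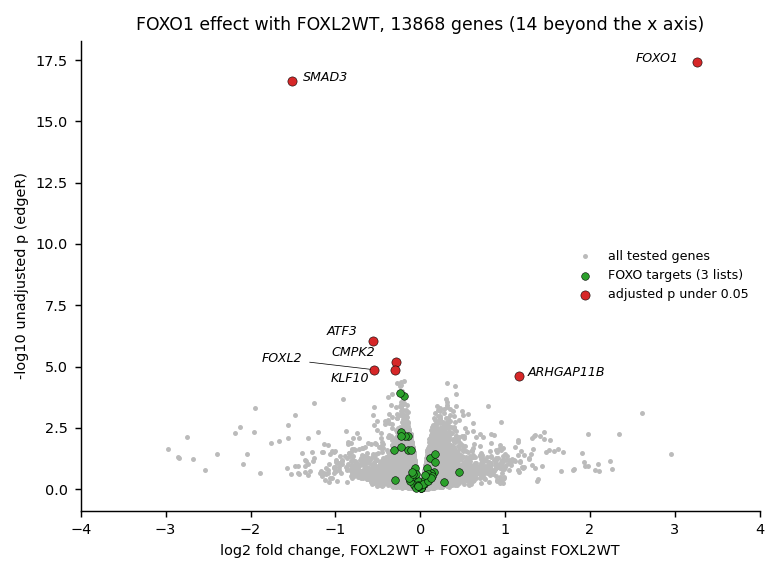
Log2 fold change of each of 13868 genes (FOXL2WT + FOXO1 against FOXL2WT, 3 libraries each) against the negative log10 of the unadjusted edgeR p; 14 genes lie beyond the horizontal axis. The 7 called genes are named, and the 45 tested FOXO targets (green) lie between log2 fold changes of -0.31 and 0.45 with none called.

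ATF3 (chr1:212565334-212620777, plus strand, GRCh38) encodes a bZIP repressor that is induced early by stress and by TGF-beta. It was at 40.0, 46.2 and 38.9 CPM in FOXL2WT and at 31.1, 27.0 and 27.4 CPM in FOXL2WT + FOXO1, with no overlap (log2 fold change -0.55 ± 0.08 SE, edgeR adjusted p = 0.0040). Vectors were at 27.0 to 30.4 CPM, so the libraries with FOXO1 stood at the level of empty vectors and those without stood above it. The comparison of FOXL2WT with Vectors shares the FOXL2WT libraries and gave a log2 fold change of 0.52 (edgeR adjusted p = 2.7e-04). ATF3 was not called by DESeq2 or when replicate B of FOXL2WT + FOXO1 was left out, where its log2 fold change was -0.51.

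KLF10, also known as TIEG1, is a zinc finger repressor and an immediate target of TGF-beta and SMAD signaling. It was at 142, 141 and 128 CPM without FOXO1 and at 108, 108 and 119 CPM with it, 1.22-fold lower (log2 fold change -0.29 ± 0.05 SE, edgeR adjusted p = 0.031). The lowest library without FOXO1 and the highest with it were both replicate C. Vectors were at 123 to 132 CPM, above all 3 libraries with FOXO1 and overlapping those without it. KLF10 lost its call when replicate A or B of either group was left out.

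CMPK2 (chr2:6840570-6866635, minus strand), a mitochondrial nucleotide kinase of the interferon response, was at 189.7, 183 and 176 CPM without FOXO1 and at 151, 146 and 153 CPM with it (log2 fold change -0.28 ± 0.05 SE, edgeR adjusted p = 0.022). All 3 libraries with FOXO1 were lower, and both groups lay below the 194 to 207 CPM of Vectors. With 1 library left out, the call held in only 1 of 6 fits, the one without replicate C of FOXL2WT. In the fits that lost the call, the log2 fold change was -0.30 to -0.26. Over all the alternatives it ran from -0.31 to -0.22.

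ARHGAP11B (chr15:30624494-30649529, plus strand), a truncated human copy of the GTPase-activating gene ARHGAP11A, was the other called gene and the lowest of the 4. It was at 3.46, 2.01 and 1.80 CPM without FOXO1 and at 5.79, 4.92 and 5.58 CPM with it (log2 fold change 1.16 ± 0.21 SE, edgeR adjusted p = 0.0499). Here it was FOXL2WT that differed from the rest, since Vectors stood at 4.30 to 4.92 CPM. ARHGAP11A was at 157 to 166 CPM without FOXO1 and at 155 to 179 CPM with it, and whether the division of reads between these near-identical copies moved the value was not tested. Under DESeq2 with transcript length offsets the log2 fold change of ARHGAP11B was -0.20, and the gene is reported as uncertain.

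**Figure D3:**
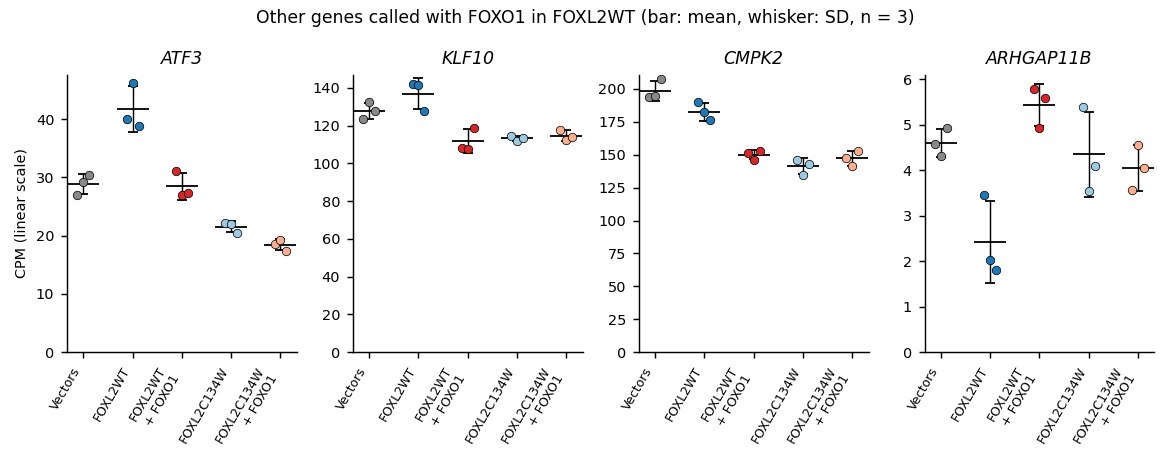
CPM (linear scale) of the 4 called genes that were not transfected, in each library of the 5 conditions with the mean and SD of 3 libraries. ATF3 with FOXL2WT lay at 38.9 to 46.2 CPM without FOXO1 and at 27.0 to 31.1 CPM with it, and ARHGAP11B with FOXL2WT was lower (1.80 to 3.46 CPM) than in the libraries of the other conditions.

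Promoter sequences were examined for the forkhead motif GTAAACA, which FOXO proteins bind and which reads TGTTTAC on the other strand. They were also searched for AANNGAAA, on the other strand TTTCNNTT, the core bound by interferon regulatory factors. The windows are from RefSeq (build GRCh38.p14) and run from 250 bases before to 50 bases after an annotated transcript start. Of 35116 windows, 3.42% held the forkhead motif and 22.8% the interferon motif. The 4 windows shown belong to CMPK2, the called interferon gene, to its neighbor RSAD2, and to TXNIP, the FOXO target with the smallest p; capitals mark every match to the motif named with each. None of these windows holds both motifs, so they do not overlap. The first CMPK2 window (chr2:6866586-6866885, minus strand) surrounds the start of CMPK2-206, the transcript with 66.4% of the estimated reads of the gene, and has the forkhead motif 52 bases upstream of that start. The second CMPK2 window (chr2:6865770-6866069, minus strand) surrounds another start, 816 bases away, and has 2 interferon motifs. The RSAD2 window (chr2:6877527-6877826, plus strand) surrounds the start of RSAD2-201, with 98.4% of the reads, and has 2 interferon motifs. The TXNIP window (chr1:145996530-145996829, minus strand) has the forkhead motif 124 bases upstream of the start of TXNIP-204, with 99.9% of the reads. Windows at other starts of these genes are not shown. One of CMPK2 (chr2:6865858-6866157) has neither motif, and one of TXNIP (chr1:145995695-145995994) lacks the forkhead motif. One of RSAD2 (chr2:6865635-6865934) has 4 interferon motifs and overlaps the second CMPK2 window, so these 2 windows are not independent.
CMPK2, forkhead motif: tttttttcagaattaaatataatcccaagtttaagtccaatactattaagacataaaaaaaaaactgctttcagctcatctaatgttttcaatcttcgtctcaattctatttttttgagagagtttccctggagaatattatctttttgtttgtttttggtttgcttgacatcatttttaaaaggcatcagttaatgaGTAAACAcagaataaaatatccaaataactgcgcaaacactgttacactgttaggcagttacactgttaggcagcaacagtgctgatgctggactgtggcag
CMPK2, interferon motif: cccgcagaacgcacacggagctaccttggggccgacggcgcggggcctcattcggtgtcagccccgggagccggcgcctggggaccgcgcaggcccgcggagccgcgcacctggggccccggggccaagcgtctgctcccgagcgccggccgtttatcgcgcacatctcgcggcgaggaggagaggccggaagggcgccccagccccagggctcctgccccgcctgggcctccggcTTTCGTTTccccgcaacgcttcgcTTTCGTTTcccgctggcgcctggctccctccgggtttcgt
RSAD2, interferon motif: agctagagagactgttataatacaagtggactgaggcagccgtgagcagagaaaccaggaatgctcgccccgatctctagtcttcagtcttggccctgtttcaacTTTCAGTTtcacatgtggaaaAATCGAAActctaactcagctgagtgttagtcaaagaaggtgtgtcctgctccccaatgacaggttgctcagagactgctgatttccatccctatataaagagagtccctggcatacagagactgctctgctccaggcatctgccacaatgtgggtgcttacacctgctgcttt
TXNIP, forkhead motif: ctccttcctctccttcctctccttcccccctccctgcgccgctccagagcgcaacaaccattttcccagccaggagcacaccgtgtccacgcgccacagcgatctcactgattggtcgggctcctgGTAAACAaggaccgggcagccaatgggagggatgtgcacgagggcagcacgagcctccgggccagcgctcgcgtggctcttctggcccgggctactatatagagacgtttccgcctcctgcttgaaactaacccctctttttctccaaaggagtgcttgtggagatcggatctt
Across lists, the interferon motif stood in the promoters of 27 of 30 interferon genes with a window and of 21.6% of 10794 tested genes with one. The forkhead motif stood in 3 of 13 insulin targets, 4 of 16 arrest and death targets and 0 of 10 stress targets, and in 3.53% of tested genes. A match is a run of letters and not a binding site, and no window is shown for ATF3, whose main transcript ATF3-202 starts elsewhere, or for KLF10.

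The most direct question, whether genes that FOXO factors are known to activate rose, was asked of 3 lists of textbook targets with 52 genes in all, of which 45 were tested. None was called. Without adjustment 1 was higher and 10 were lower at an edgeR p under 0.05, against 4.49% and 4.64% of all genes, and the median log2 fold change was -0.02 against 0.00 over all genes. The number lower was 6 without replicate B of FOXL2WT, where the median was 0.00, and the number higher was 0 to 2 with 1 library left out. No alternative analysis called a target higher, and up to 3 were called lower. The 95% interval lay below a log2 fold change of 0.5 for 42 of the 45, against 11655 of all 13868 genes. A rise of that size in single genes was thus outside the interval for most of them. These values are for cells with and without plasmid together. The median over the targets, relative to Vectors, was -0.08 to -0.04 in FOXL2WT and -0.06 to -0.05 in FOXL2WT + FOXO1, and the groups overlapped.

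Among the targets in arrest and death, 17 were tested. CDKN1B, which encodes the inhibitor p27, was at 246, 249 and 261 CPM without FOXO1 and at 256, 249 and 255 CPM with it, and its log2 fold change of 0.00 had a 95% interval of -0.08 to 0.08. KLF6, the most abundant member, a zinc finger regulator, was at 373 to 399 CPM without FOXO1 and at 358 to 383 CPM with it (log2 fold change -0.05). These groups overlapped for both genes. BCL2L11, the BH3-only death gene BIM, was at 17.0, 12.8 and 15.5 CPM without FOXO1 and at 17.0, 16.3 and 17.5 CPM with it. Its interval, -0.09 to 0.41, spans a modest rise. PMAIP1, the BH3-only gene NOXA, had the opposite sign: it was at 268, 273 and 253 CPM without FOXO1 and at 240.3, 225 and 231 CPM with it, did not overlap, and had a log2 fold change of -0.19 (edgeR adjusted p = 0.11). The growth arrest gene GADD45B (65.7 to 69.5 CPM against 53.8 to 60.4 CPM) and the p21 gene CDKN1A (70.9 to 79.0 CPM against 61.5 to 71.8 CPM) had log2 fold changes of -0.23 and -0.18 and were not called either (edgeR adjusted p = 0.33 and 0.36).

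Among the insulin feedback and metabolic targets 15 of 20 were tested, with a median log2 fold change of -0.05. That median rests on single libraries: with 1 left out it was -0.03 without FOXL2WT replicate A, -0.10 without B and 0.01 without C, and -0.02 and -0.15 without FOXL2WT + FOXO1 replicates A and C. TXNIP, the thioredoxin-interacting protein that limits glucose uptake, was at 177, 195 and 189 CPM without FOXO1 and at 156, 153 and 165 CPM with it, and the groups did not overlap (log2 fold change -0.24 ± 0.05 SE, edgeR adjusted p = 0.10). Its log2 fold change was similar, -0.26 to -0.23, in 6 alternative analyses in which it passed the threshold, among them both fits with DESeq2. CITED2, a coactivator-binding regulator, was at 195 to 203 CPM and at 195 to 216 CPM. IRS2, an insulin receptor substrate, was at 26.4 to 33.1 CPM without FOXO1 and at 30.7 to 32.8 CPM with it (log2 fold change 0.10). The liver-type targets were barely present, with PDK4, a brake on pyruvate oxidation, at 0.604 to 1.59 CPM over the 6 libraries, IGFBP1 at 0.433 to 0.696 CPM, and at most 6 counts in any library for the 4 further genes in the table that were too low to test.

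The stress defence and autophagy targets gave 13 tested genes and a median of -0.02. PRDX3, a mitochondrial peroxidase, was at 312, 312 and 290.0 CPM without FOXO1 and at 327, 289.6 and 286 CPM with it. MAP1LC3B, the autophagosome protein LC3B, was at 223 to 239 CPM and at 199.6 to 225 CPM (log2 fold change -0.11), and these groups overlapped. FBXO32, the ubiquitin ligase atrogin-1, was at 6.92 to 7.65 CPM without FOXO1 and at 4.64 to 6.64 CPM with it (log2 fold change -0.31, edgeR adjusted p = 0.49). The autophagy kinase ULK1 was the 1 member higher at an unadjusted p under 0.05, at 14.8 to 16.9 CPM without FOXO1 and at 17.4 to 19.3 CPM with it.

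Of the cells' own forkhead and AKT genes, none of 20 tested was called, where 0.0505% of all genes were. At an edgeR p under 0.05, 1 was higher and 2 lower, against 4.49% and 4.64% of all genes. FOXO3, the sister factor, was at 66.9, 70.3 and 68.0 CPM and at 71.4, 69.0 and 72.2 CPM. SGK1, a kinase that phosphorylates FOXO proteins, was at 415, 450.1 and 395 CPM without FOXO1 and at 378, 355 and 379 CPM with it, with no overlap (log2 fold change -0.18, edgeR adjusted p = 0.20). Of 22 cyclins, CDKs and CDK inhibitors, none was called, and 1 was higher and 2 lower at an edgeR p under 0.05. CDK4 was at 9092 to 9309 CPM without FOXO1 and at 9295 to 9760 CPM with it, and CCND1, encoding cyclin D1, at 6435 to 6797 CPM and at 6878 to 7210 CPM (log2 fold change 0.08, edgeR adjusted p = 0.49). Cyclin D1, which nuclear FOXO1 is known to lower, was thus at a slightly higher level in all 3 libraries.

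Of 18 replication and mitosis genes none was called, but 16 had a log2 fold change above 0, against 6947 of all 13868 genes. At an edgeR p under 0.05, 3 were higher and 0 lower, against 4.49% and 4.64% of all genes. With 1 library left out, 2 to 5 were higher and the median was 0.01 to 0.05. MKI67, the proliferation marker Ki-67, was at 17.5, 19.3 and 18.7 CPM without FOXO1 and at 24.2, 34.6 and 25.7 CPM with it (log2 fold change 0.62 ± 0.17 SE, edgeR adjusted p = 0.25). The groups did not overlap, and Ki-67 had been lower in FOXL2WT than in Vectors, a comparison that shares the FOXL2WT libraries (log2 fold change -0.90). TYMS, thymidylate synthase, was at 137 to 139.6 CPM and at 149 to 151 CPM, TOP2A, a topoisomerase, at 444 to 505 CPM and at 466 to 562 CPM, and CDC20, an activator of mitotic exit, at 324 to 344 CPM and at 327 to 357 CPM. The median of the list was 0.03, so all but a few of these values were small. The BCL2 family and death receptors showed the reverse order, with 18 of 23 below 0, against 49.9% of all genes, a median of -0.07 and none called. At an edgeR p under 0.05, 3 of them were lower and 0 higher, against 4.64% and 4.49% of all genes. MCL1, a survival protein, was at 611, 641 and 609 CPM without FOXO1 and at 559, 575 and 596 CPM with it (log2 fold change -0.11, edgeR adjusted p = 0.35), and the death receptor TNFRSF10B was at 174 to 185 CPM and at 159 to 169 CPM.

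Since SMAD3 RNA fell, the TGF-beta targets were examined next. Of 29 tested, KLF10 was called lower and the others were not; 7 were lower and 3 higher at an edgeR p under 0.05, against 4.64% and 4.49% of all genes, and the median log2 fold change was -0.03. The number lower was 4 without replicate A or B of FOXL2WT or replicate B of FOXL2WT + FOXO1, the number higher was 1 without replicate B of either group, and the median was -0.02 without replicate C of FOXL2WT or replicate B of FOXL2WT + FOXO1. JUNB, an AP-1 subunit, was at 69.5, 70.3 and 72.1 CPM and at 58.5, 53.1 and 57.4 CPM (log2 fold change -0.33, edgeR adjusted p = 0.26). All 3 libraries with FOXO1 were lower. Other targets did not share that direction: THBS1, thrombospondin 1, was at 2453 to 2581 CPM and at 2521 to 2732 CPM, and FN1, fibronectin, at 1746 to 1808 CPM and at 1879 to 2113 CPM (log2 fold change 0.17). BHLHE40, a circadian repressor, was at 107 to 109.7 CPM without FOXO1 and at 96.4 to 99.8 CPM with it. The ligands, receptors and SMADs of the family gave no call among 26, and 1 was higher and 2 lower at an edgeR p under 0.05. TGFB2 was at 293 to 323 CPM and at 305 to 316 CPM and the receptor TGFBR2 at 171 to 175 CPM and at 167 to 174 CPM.

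Low values gathered in the interferon response. Of 39 genes tested, 36 had a log2 fold change below 0, against 49.9% of all genes; 16 were lower and 0 higher at an edgeR p under 0.05, against 4.64% lower and 4.49% higher of all genes; with 1 library left out the number lower was 11 to 15. CMPK2 was the only call, DESeq2 called 4 and the loosest count filter 9, all lower, and the median log2 fold change was -0.09. RSAD2, the antiviral enzyme viperin, was at 154, 149.7 and 148 CPM without FOXO1 and at 113, 122 and 124 CPM with it (log2 fold change -0.33 ± 0.07 SE, edgeR adjusted p = 0.10), and it passed the threshold in 8 alternative analyses at log2 fold changes of -0.38 to -0.32. IFIT2, which binds viral RNA, was at 436, 439.6 and 431 CPM and at 325, 372 and 375 CPM. Neither pair of groups overlapped. The cytokine genes were low and differed in the same direction: IFNB1, interferon beta, was at 1.28, 1.41 and 1.03 CPM without FOXO1 and at 0.404, 0.557 and 0.337 CPM with it (log2 fold change -1.48 ± 0.38 SE, edgeR adjusted p = 0.19), and the chemokine CXCL10 was at 4.63, 4.09 and 4.66 CPM and at 2.89, 2.64 and 1.68 CPM (log2 fold change -0.91 ± 0.20 SE, edgeR adjusted p = 0.14). The abundant members differed less, with IFIT3 at 1273 to 1345 CPM and at 1178 to 1333 CPM and the antiviral GTPase MX1 at 1272 to 1344 CPM and at 1186 to 1264 CPM. Against Vectors, the median of the list stood at -0.15 to -0.13 in the libraries of FOXL2WT and at -0.25 to -0.21 in those of FOXL2WT + FOXO1, with no overlap.

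Of the NF-kappaB targets 19 of 26 were below 0, against 49.9% of all genes, and none was called. At an edgeR p under 0.05, 6 were lower and 0 higher, against 4.64% and 4.49% of all genes. Relative to Vectors their median was -0.37 to -0.27 in the libraries of FOXL2WT and -0.57 to -0.41 in those of FOXL2WT + FOXO1, with no overlap. NFKBIA, the inhibitor IkappaB-alpha that NF-kappaB itself induces, was at 103, 105 and 104 CPM without FOXO1 and at 90.2, 90.2 and 91.9 CPM with it (log2 fold change -0.20 ± 0.04 SE), which narrowly missed the threshold (edgeR adjusted p = 0.060) and passed it in 6 alternative analyses at -0.23 to -0.19. TNFAIP3, the feedback inhibitor A20, was at 74.7 to 79.2 CPM and at 62.0 to 71.3 CPM, and IL6 at 11.1 to 13.2 CPM and at 9.74 to 10.2 CPM. Their groups did not overlap. ICAM1, an adhesion molecule, was at 203 to 219 CPM and at 195 to 209 CPM, and SOD2, a mitochondrial superoxide dismutase that is also a FOXO target, at 144 to 163 CPM and at 141 to 146 CPM, both with overlap.

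ATF3 is also induced through ATF4, the factor of the integrated stress response that raises amino acid synthesis and transport. Of 32 tested genes of that program, 29 had a log2 fold change below 0, against 49.9% of all genes. At an edgeR p under 0.05, 13 were lower and 0 higher, against 4.64% and 4.49% of all genes. ATF3 was the only call, the alternative analyses called 0 to 5 lower, and the median was -0.11. The number lower was 6 without replicate B of FOXL2WT and 7 without replicate B of FOXL2WT + FOXO1. TRIB3, a pseudokinase that ATF4 induces, was at 154, 182 and 154 CPM without FOXO1 and at 138, 118 and 135 CPM with it (log2 fold change -0.33 ± 0.08 SE, edgeR adjusted p = 0.20). ASNS, asparagine synthetase, was at 242, 265 and 227 CPM and at 218, 201 and 221 CPM (log2 fold change -0.20). ATF4 RNA itself was at 481 to 499 CPM without FOXO1 and at 472 to 501 CPM with it, and the groups overlapped. ATF4 protein was not measured, and its part in the lower values was not tested. The most abundant members, SLC38A2, an amino acid transporter, and STC2, stanniocalcin 2, had log2 fold changes of -0.04 and -0.08. The same genes had been higher in FOXL2WT than in Vectors, where 29 of the 32 were called higher with a median of 0.41; the median relative to Vectors was 0.38 to 0.45 in the libraries of FOXL2WT and 0.26 to 0.33 in those of FOXL2WT + FOXO1. Both comparisons rest on the same FOXL2WT libraries.

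Other stress programs were more evenly divided between higher and lower values. Over all genes 49.9% were below 0, and 4.64% were lower and 4.49% higher at an edgeR p under 0.05. Of 20 immediate early genes 10 were below 0, and at an edgeR p under 0.05 there were 4 lower, ATF3 among them, and 1 higher, with DUSP1, a phosphatase of MAP kinases, at 297 to 319 CPM and at 286 to 318 CPM. Of 21 chaperones 10 were below 0, with HSPA8 at 3181 to 3403 CPM and at 3102 to 3223 CPM and HSP90AA1 at 1670 to 1834 CPM and at 1647 to 1885 CPM. These groups overlapped. The NRF2 antioxidant list had 13 of 20 below 0, 4 lower and 2 higher at an edgeR p under 0.05, and a median of -0.04, with TXNRD1, thioredoxin reductase, at 1949 to 2112 CPM and at 1873 to 1942 CPM and the ferritin gene FTH1 at 1107 to 1131 CPM and at 1037 to 1144 CPM. The cholesterol list had 10 of 19 below 0 and a median of -0.01, with FDFT1 at 161 to 165 CPM and at 159 to 172 CPM.

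Higher values gathered in the chromatin list. All 26 remodelers and lysine modifiers had a log2 fold change above 0, against 6947 of all 13868 genes. Their values ran from 0.01 to 0.35 with a median of 0.17. At an edgeR p under 0.05, 9 were higher and 0 lower, against 4.49% and 4.64% of all genes. None was called, while DESeq2 called 2 and the loosest count filter 6, all higher. Without replicate B of FOXL2WT + FOXO1 the median was 0.10 and 4 were higher. SMARCA4, the BRG1 ATPase, was at 73.3, 66.7 and 73.2 CPM without FOXO1 and at 88.7, 89.7 and 87.9 CPM with it (log2 fold change 0.32 ± 0.06 SE, edgeR adjusted p = 0.060), and passed the threshold in 6 alternative analyses at 0.31 to 0.32. CREBBP, a histone acetyltransferase, was at 32.4, 28.1 and 30.5 CPM and at 37.3, 42.6 and 35.2 CPM (log2 fold change 0.34, edgeR adjusted p = 0.32). Neither overlapped. The most abundant members, CHD4 and BAZ1B, had log2 fold changes of 0.11 and 0.17.

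The matrix genes leaned the same way, with 30 of 34 above 0, against 6947 of all 13868 genes, and a median of 0.08. At an edgeR p under 0.05, 9 were higher and 0 lower, against 4.49% and 4.64% of all genes, and none was called. The alternative analyses called 0 to 4 higher. The number higher was 5 without replicate B of FOXL2WT, 3 without replicate B of FOXL2WT + FOXO1 and 14 without its replicate A. HSPG2, the basement membrane proteoglycan perlecan, was at 178, 171 and 166 CPM without FOXO1 and at 228, 249 and 199.8 CPM with it (log2 fold change 0.40 ± 0.10 SE, edgeR adjusted p = 0.20). COL5A1, a fibrillar collagen, was at 277 to 324 CPM and at 336 to 378 CPM, whereas COL4A1, a basement membrane collagen and one of the most abundant, was at 2347 to 2500.0 CPM and at 2379 to 2562 CPM. Of the cytoskeleton and YAP targets 10 of 21 were above 0; ACTB and ACTG1, the cytoplasmic actins, had log2 fold changes of -0.03 and -0.12, while the myosin heavy chain MYH9 was at 1081 to 1177 CPM and at 1296 to 1402 CPM (log2 fold change 0.23, edgeR adjusted p = 0.16). The chromatin and matrix genes were long: their median transcript length was 5719 and 4526 bases, against 2110 bases over all tested genes and 1897 bases for the interferon list. When counts were corrected for gene length, the median log2 fold changes of the chromatin and matrix lists were 0.12 and 0.07, and those of the interferon and ATF4 lists were -0.09 and -0.12.

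**Figure D4:**
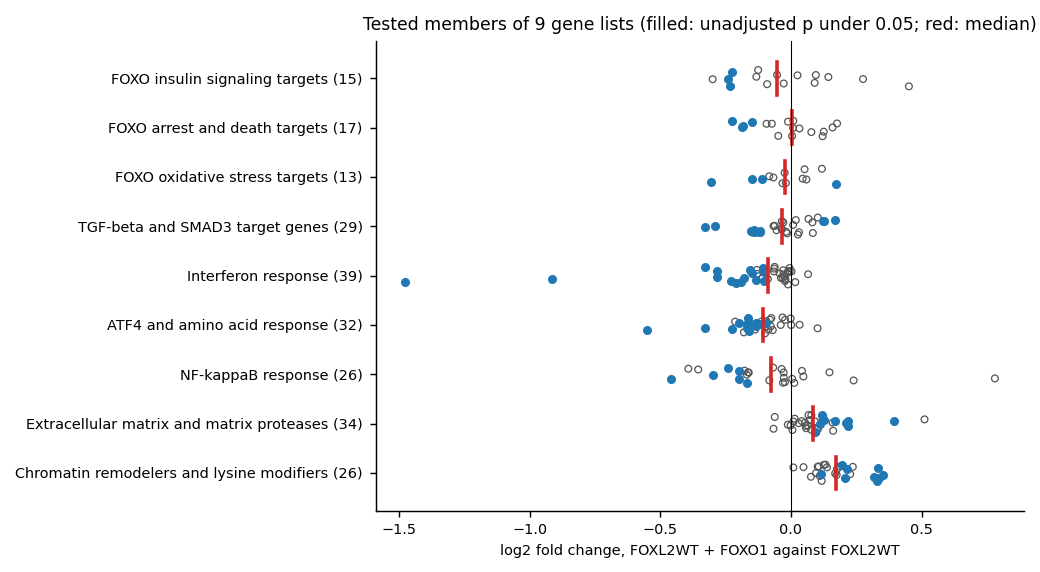
Log2 fold change (FOXL2WT + FOXO1 against FOXL2WT) of each tested member of 9 gene lists, with the number tested in brackets, filled points for an unadjusted edgeR p under 0.05 and a red bar at the median. The medians of the FOXO target lists lie at -0.05, 0.00 and -0.02, that of the ATF4 list at -0.11 and that of the chromatin list at 0.17.

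A list of 30 genes that the study names in its text for other comparisons of these libraries was described too; since the study chose them on these samples, it is not independent evidence. ATF3 was its only call, 12 members were higher and 6 lower at an edgeR p under 0.05, against 4.49% and 4.64% of all genes, and the median was 0.10. Without replicate B of FOXL2WT 7 were higher and the median was 0.05, and 8 were higher without replicate B of FOXL2WT + FOXO1. The alternative analyses called 0 to 8 members higher and 0 to 4 lower. Its most abundant members were FLNA, filamin A, at 1698 to 1826 CPM and at 1889 to 1969 CPM, and COL4A2 at 1484 to 1633 CPM and at 1689 to 1753 CPM, neither of them overlapping (log2 fold changes 0.13 and 0.12). Of the granulosa genes 12 were tested and none was called, where 0.0505% of all genes were. At an edgeR p under 0.05, 1 was higher and 0 lower. KRT8 and KRT18 had log2 fold changes of -0.01 and 0.03, and GATA4, a granulosa transcription factor, was at 129 to 138 CPM and at 137 to 149.5 CPM. Of 12 mitochondrially encoded genes none was called, and 2 were higher and 0 lower at an edgeR p under 0.05. MT-CO1 was at 871 to 970.0 CPM and at 807 to 919 CPM, and MT-CO2 at 355 to 396 CPM and at 343 to 385 CPM. Markers of other cell types summed to 2191 to 2293 CPM without FOXO1 and to 2026 to 2249 CPM with it, most of it from the keratins KRT7 and KRT19, which granulosa cells in culture may also express; CYP17A1 was at 0 in all 6 libraries, and PTPRC, CD3E, HBB and HBA1 had at most 3 counts.

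The effect of FOXO1 differed beside the mutant for some genes. In FOXL2C134W + FOXO1 against FOXL2C134W, a comparison that shares no library with the one above, 99 genes were called (0.714% of 13868), 98 of them lower. FOXO1 RNA was itself less abundant there, at 43.3, 47.2 and 39.1 CPM, and so were SMAD3 (379 to 411 CPM) and FOXL2 (139 to 176 CPM), so the RNA of the plasmids differed between the 2 comparisons as well as the form of FOXL2. None of the 4 called genes above was called there: the log2 fold changes beside the mutant were -0.23 for ATF3, 0.02 for KLF10, 0.06 for CMPK2 and -0.10 for ARHGAP11B. The difference between the effects was tested as an interaction, which called 192 genes (1.38%). CMPK2, KLF10 and ARHGAP11B were among them (edgeR adjusted p = 0.013, 0.033 and 0.032), whereas ATF3 was not (edgeR adjusted p = 0.18). For ATF3 a difference between the effects was therefore not shown.

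Of the genes called lower with FOXO1 beside the mutant, SMAD3 was also called lower beside the normal protein. No other was, but only 0.0505% of all tested genes were called there. Without the transfected genes there were 97, all lower with the mutant, with a median log2 fold change of -0.39. Beside wild-type FOXL2, 87 of the 97 had a log2 fold change above 0, against 6947 of all 13868 genes, and the median was 0.17. At an edgeR p under 0.05, 55 were higher and 0 lower, against 4.49% and 4.64% of all genes. None was called, and the alternative analyses called 0 to 25 of them, DESeq2 6 and the loosest count filter 25. Under DESeq2 with transcript length offsets 76 were above 0 and 30 were higher at an unadjusted p under 0.05. The interaction was called for 74 of them, a count that is no separate evidence because it uses the same values beside the mutant by which the 97 were chosen. Relative to Vectors, the median of the 97 was -0.10, -0.25 and -0.16 in the libraries of FOXL2WT and -0.02, 0.04 and -0.05 in those of FOXL2WT + FOXO1. The libraries with FOXO1 thus lay nearer to Vectors and did not overlap those without. NFIC, a transcription factor of the nuclear factor I family, was at 56.0, 48.4 and 53.9 CPM without FOXO1 and at 68.6, 66.5 and 62.6 CPM with it (log2 fold change 0.32), and beside the mutant its log2 fold change was -0.50 (interaction, edgeR adjusted p = 4.6e-04). SMARCA4 had log2 fold changes of 0.32 and -0.33, and HSPG2 of 0.40 and -0.48. The 97 genes were long and rich in G and C, with a median length of 4283 bases and a median GC content of 59.5%, against 2110 bases and 49.1% over all tested genes. With counts corrected for length, their median beside wild-type FOXL2 was 0.15, and with counts corrected for GC content it was 0.16. The number higher at an edgeR p under 0.05 was 31 without replicate B of FOXL2WT or without replicate B of FOXL2WT + FOXO1, with medians of 0.13 and 0.12 and with 2 and 1 lower. Over all 13865 tested genes other than the transfected ones the Pearson r between the 2 effects was -0.01, and genes are not independent replicates. All genes had equal weight, with log2 fold changes from -7.76 to 8.41 beside FOXL2WT. This r therefore cannot decide whether the effects are related. The 97 genes are those of the full set of libraries: the number of calls beside the mutant was 5 without replicate B or C of FOXL2C134W or replicate C of FOXL2C134W + FOXO1, 11 without its replicate A, 231 without its replicate B and 355 without replicate A of FOXL2C134W.

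**Figure D5:**
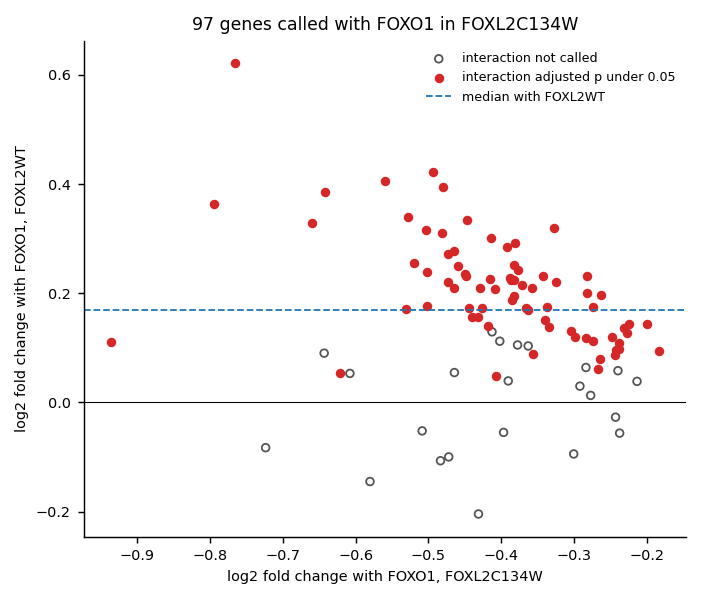
Log2 fold change with FOXO1 beside FOXL2WT (vertical) against that beside FOXL2C134W (horizontal) for the 97 genes called beside FOXL2C134W, transfected genes left out; filled points passed the interaction test. All 97 lie below 0 on the horizontal axis, by which they were chosen, and 87 lie above 0 on the vertical axis, where the dashed median is at 0.17.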

How the data were processed

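RNA of transfected HGrC1 cells was sequenced as 75-bp single-end reads from stranded poly(A) libraries, with 3 libraries in each of 5 groups. The authors quantified transcripts with Salmon 1.1.0 against hg38 and deposited estimated counts per gene, rounded to whole numbers, for 37787 genes, and tables of estimated counts and TPM per transcript. The annotation release is not given in the sources used here. Nothing in the labels says that replicates A, B and C came from separate cultures, so p-values measure the spread between these samples, which may be technical.

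Groups were taken from the labels. Genes were filtered with edgeR 4.0.16 (filterByExpr over the 5 groups), leaving 13868; library sizes were scaled by TMM, and the quasi-likelihood test was fitted to all 15 libraries in R 4.3.3, with Benjamini-Hochberg adjustment over all tested genes and a threshold of 0.05. The whole-number estimates were used as deposited. A gene not past the threshold may still differ. CPM used the TMM-scaled sizes. TPM values were only described. Depth was 14962245 to 25339094 counts per library. The design named 3 kinds of gene: the transfected ones, called genes whose groups did not overlap, with at least 10 counts (up to 15 each way), and in each list the called members or the 2 most abundant. A further 43 genes, among them those given for the interferon, chromatin and matrix lists beyond the called and the most abundant members, were chosen after their values were seen. Some genes that the rule names are not reported here. The members and the 23 lists were chosen with earlier results of these data known. Alternatives were DESeq2 1.42.0, its size factors, other count filters, fewer libraries in the fit, a replicate block, offsets for transcript length, gene length or GC content (lowess span 0.3), and leaving out each library. Scripts were tested on simulated data. Gene positions are from GENCODE 44 and promoters from RefSeq GRCh38.p14.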

Additional observations from a re-analysis of the deposited data

Results flagged for a closer look

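Of the 192 genes called by the interaction, 21 are among the genes examined one by one, most of them chosen after their values were seen. In these the effect of FOXO1 beside FOXL2C134W differed from its effect beside FOXL2WT by the interaction test of edgeR at an adjusted p under 0.05. Each value below is the log2 fold change beside FOXL2C134W minus that beside FOXL2WT. Of the transfected genes, FOXO1 differed by -1.41, SMAD3 by 0.41 and FOXL2 by 0.60. The called genes gave -1.27 for ARHGAP11B, 0.31 for KLF10 and 0.34 for CMPK2, and the interferon and NF-kappaB genes RSAD2 and NFKBIA gave 0.52 and 0.30. Of 26 tested NF-kappaB genes the interaction called 1, and their median log2 fold change was -0.08 beside either form of FOXL2. Of 39 interferon genes it called 3, with medians of -0.09 beside FOXL2WT and 0.06 beside the mutant. RSAD2, for example, was at a log2 fold change of -0.33 beside FOXL2WT and 0.19 beside the mutant.

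The other differences were negative. They were -0.35 for FLNA, -0.37 for COL4A2, -0.88 for HSPG2, -0.55 for COL5A1 and -0.57 for MYH9 among matrix and cytoskeleton genes. They were -0.65 for SMARCA4, -0.87 for CREBBP, -0.99 for KMT2D, -0.78 for EP400 and -0.82 for NFIC among chromatin genes and transcriptional regulators. They were -1.39 for MKI67, -0.54 for ULK1 and -0.29 for FOXM1, a forkhead factor of proliferation. MKI67 had the widest change of sign among these, from a log2 fold change of 0.62 beside FOXL2WT to -0.77 beside the mutant. FOXO1, SMAD3 and FOXL2 RNA differed between the same libraries; their part in these differences was not tested.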

How the results depend on the processing

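The number of genes called beside wild-type FOXL2, 7, moved to 62 with DESeq2, to 69 with DESeq2 and transcript length offsets, to 260 with a filter of at least 1 count in any library, to 13 with at least 10 counts in every library, to 14 with only the compared libraries, to 26 with a gene length offset, to 22 with a GC content offset and to 2 to 7 with 1 library left out (3 without FOXL2WT replicate B, and 4 and 2 without FOXL2WT + FOXO1 replicates A and B). Calls beside FOXL2C134W, 99, became 223, 61, 463, 170 and 32 in the first 5 of these, 41 with the GC offset and 5 to 355 with 1 library left out. Interaction calls, 192, became 365, 126 and 551 in the first 3 and 45 to 423 with 1 library left out: 56 and 47 without replicate B of FOXL2WT or of FOXL2WT + FOXO1, 423, 78 and 83 without FOXL2C134W replicate A, B or C, and 45, 303 and 121 without FOXL2C134W + FOXO1 replicate A, B or C. The cause of these shifts was not tested.

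For replicates A, B and C the correlations of same-letter deviations were 2.2e-04, 0.024 and 0.046 beside FOXL2WT. Beside FOXL2C134W they were 0.036, -0.032 and 0.124. Not every library correlated best with its own letter. With 3 libraries per group, these values cannot decide whether the letters pair the libraries. With a replicate block 7 genes were called, 6 of them shared, KLF10 being lost; with the block and the gene length offset there were 22.

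The FOXO1 log2 fold change ranged from 3.16 to 8.53 over the alternatives and that of SMAD3 from -1.78 to -1.48, and both kept their calls. Signs reversed with DESeq2 and transcript length offsets for ARHGAP11B (-0.196), CITED2 (-0.078), KRT19 (-0.0746), ICAM1 (0.0409), TGFBR2 (0.00365) and KRT8 (0.000414). They reversed with the gene length offset for KRT8 (0.00144, or 0.00142 with the replicate block) and COL4A1 (-0.00796, or -0.00784). With 1 library left out, values that crossed 0 ranged for CITED2 from -0.0157 to 0.0532, CDKN1B from -0.0137 to 0.0312, PRDX3 from -0.0802 to 0.0163, CDC20 from -0.0192 to 0.043, TGFB2 from -0.0203 to 0.0492, TGFBR2 from -0.0176 to 0.0114, KRT8 from -0.0331 to 0.0163, FDFT1 from -0.00448 to 0.0459, COL4A1 from -0.0191 to 0.0368, ACTB from -0.0617 to 0.0195, KRT19 from -0.0185 to 0.0642 and WT1 from -0.0153 to 0.106. In the main fit these were uncalled genes near 0, apart from ARHGAP11B. Over all the alternatives, the log2 fold change of WT1 reached 1.07. Low counts limit genes of a few CPM, such as IFNB1, IGFBP1, PDK4, CXCL10 and ARHGAP11B.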
